A study of Mus musculus with 4 samples.

Results

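The genes examined here encode 8 components of the PI3K, AKT and mTOR pathway: Pik3ca and Pik3r1 (phosphoinositide 3-kinase, PI3K), Akt1 and Akt2, Tsc2, and Mtor, Rptor and Rictor. They were taken by symbol from the 24421 gene symbols of the deposited count matrix, and all 8, called members of the pathway set below, were present. Transcripts were counted at their 3′ ends by bulk MARS-seq, which primes on the poly(A) tail, in 4 libraries of B16F10 cells. B16F10 is a metastatic melanoma line of the C57BL/6 mouse strain. The 2 shControl libraries came from cells with a lentiviral control vector, listed as empty in the study's methods, and the 2 shLmna libraries from cells with a lentiviral short hairpin RNA against Lmna, which codes for the nuclear lamina proteins lamin A/C. Both lines were selected with puromycin and grown in DMEM with serum, and no other treatment is stated. Each group is thus a stably transduced line, and a general effect of carrying a hairpin cannot be told apart from the loss of Lmna. Separate transductions or cultures behind the 2 libraries of a group are not stated, so p-values measure the spread between libraries, which may be technical.

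In this pathway, growth factor receptors activate class I PI3K, a dimer of a catalytic and a regulatory subunit, which makes the membrane lipid PIP3. PIP3 brings AKT to the membrane, where PDK1 and mTOR complex 2 (mTORC2, built around Rictor) phosphorylate it. AKT inhibits TSC2, a brake on the small GTPase RHEB, and RHEB with the amino acid sensing Rag GTPases activates mTOR complex 1 (mTORC1, built around Raptor, the product of Rptor). The pathway drives growth and protein synthesis, is often active in melanoma, and is regulated largely by phosphorylation, which transcript counts do not measure.

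Library totals ranged from 2494880 to 3808843 counts, and 9150 genes had enough counts to be tested. Lmna was measured at 875.3 and 718.6 CPM (counts scaled to library depth, with TMM factors) in shControl and at 130.9 and 130.8 CPM in shLmna. Its level in shLmna was 0.164 of that in shControl (edgeR quasi-likelihood test, adjusted p = 7.93e-06), as the labels imply. The 7 melanocyte lineage markers all had counts, and their summed level was 20117 to 20891 CPM in shControl and 21156 to 24602 CPM in shLmna, although Tyr had 7 counts or fewer in every library. Single markers moved in both directions, with Sox10 at -0.89 on the log2 scale (edgeR adjusted p = 0.00161), Pmel at 0.41 (adjusted p = 0.0258) and Mlana at 0.51 (adjusted p = 0.0051). Mitf at -0.37 (edgeR adjusted p = 0.0804), Tyrp1 at -0.14 (adjusted p = 0.724) and Dct at -0.02 (adjusted p = 0.904) did not pass. Tyrp1 differed between the shLmna libraries, at 2384 and 4451 CPM, against 3843 and 3676 CPM in shControl. Of the 7 fibroblast, 6 leukocyte and 5 endothelial markers, 3, 4 and 2 genes had no count in any library. The fibroblast sum was 7.12 to 7.50 CPM in shControl and 2.37 to 4.90 CPM in shLmna. The leukocyte sum was 14.7 to 18.0 CPM in shControl and 11.5 to 13.4 CPM in shLmna. Most of it came from Cd68, at 16.4 and 14.5 CPM in shControl and 10.7 and 12.0 CPM in shLmna. The endothelial sum was 3.10 to 3.21 CPM in shControl and 0 to 1.36 CPM in shLmna. The part of these differences in the results was not tested. In bulk RNA, fewer cells with a transcript and less of it per cell cannot be told apart.

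No change in transcript level was called for any of the 8 genes. Pik3ca had too few counts to test, and none of the other 7 passed the test at an adjusted p of 0.05 (edgeR quasi-likelihood test, Benjamini-Hochberg adjustment), against 15.2% of all tested genes, with 9.74% lower and 5.48% higher in shLmna. None of the 7 reached an unadjusted p of 0.05 either (edgeR), against 2750 of all 9150 tested genes. With DESeq2 or limma none was called. With the added limits of a log2 fold change beyond 1 and a mean normalized count over 5, the share over all genes was 7.64%. The fold changes of the 7 genes ran from -0.29 for Akt1 to 0.19 for Mtor on the log2 scale, with a median of -0.11, beside a median of -0.0011 over all tested genes. Their median size without sign was 0.15, against 0.29 over all tested genes. The 95% intervals of the main edgeR fit still allowed changes of between 0.651 and 1.71 times the control level across the 7 genes. A 2-fold change in either direction thus lay outside every interval of that fit. This bound does not cover the alternative settings, where Rictor was at 0.61 on the log2 scale under a correction for GC content. Groups did not overlap for 4 of the 7 genes (57.1%), close to the 60.1% found over all tested genes.

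**Figure D1:**
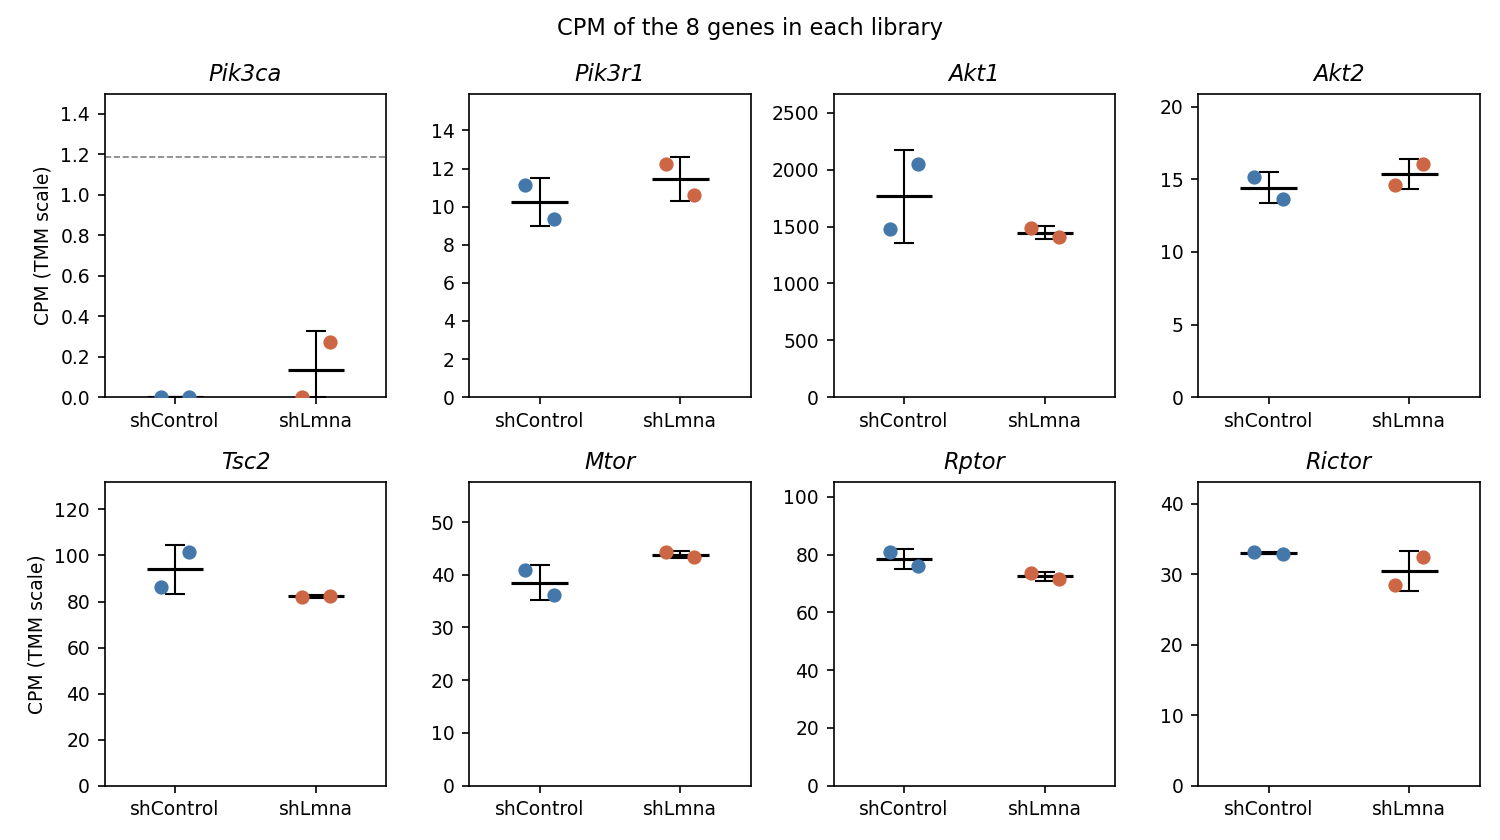
Level of each of the 8 genes (TMM-scaled CPM, linear axis from 0, a scale of its own per panel) in the 2 shControl and 2 shLmna libraries. Points are libraries, horizontal lines are group means and error bars are SD (n = 2, cut at 0), and the dashed line in the Pik3ca panel is the highest of the floors set by 3 counts (1.19 CPM), which no Pik3ca value reached.

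Because counting was restricted to the last 1000 bases of each transcript and 100 bases downstream, CPM values of different genes refer to windows of equal length. On this scale Akt1 stood far above the others. Its mean over the 4 libraries was 1606 CPM (0.162% of all counts), rank 85 of the 24421 symbols, and 18.2-fold above that of Tsc2 (88.1 CPM). Rptor followed with a mean of 75.5 CPM, Mtor with 41.2, Rictor with 31.7, Akt2 with 14.9 and Pik3r1 with 10.9 CPM. The library values of neighbours in this order did not overlap for any pair from Akt1 down to Pik3r1, and Pik3ca came last at the limit of detection. The windows can differ in how efficiently they are primed, so the order is a description of these libraries. A canonical polyadenylation signal (AATAAA or ATTAAA on the transcript strand) was found in the last 50 annotated bases of 8 of the 8 genes, against 80.3% of tested genes with an annotated 3′ end.

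Pik3ca encodes p110-alpha, the catalytic PI3K subunit that is commonly mutated in cancer. It spans chr3:32397671-32468486 (plus strand, GRCm38, as for every position given here). It had 0 counts in both shControl libraries, 0 in shLmna 1 and 1 in shLmna 2, which is 0.272 CPM. A count of 0 allows up to 0.929 and 0.803 CPM in shControl 1 and 2 and 1.19 CPM in shLmna 1. Pik3ca was therefore at or under the floor in every library, was not tested, and no fold change is given. Its annotated 3′ ends lie 2374 bases apart in GENCODE and RefSeq, and counting followed RefSeq genes. In the last 1000 bases of the GENCODE transcript, which the counted window may not cover, 6.39% of the 31-base words occur in other genes. The counts therefore do not show that the transcript was absent.

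Among the other class I catalytic subunits, Pik3cb (p110-beta) had 40, 34, 28 and 28 counts in shControl 1, shControl 2, shLmna 1 and shLmna 2. It contributed 47.1% and 38.6% of the Pik3ca, Pik3cb and Pik3cd counts in shControl and 41.8% and 37.3% in shLmna, and Pik3cd (p110-delta), better known from leukocytes, gave nearly all the rest. The exact binomial intervals of these single-library shares together spanned 26.4% to 58.2%, and all overlapped. No shift between the subunits was seen (exact permutation test, two-sided, p = 0.667), and a small one could be hidden at this depth.

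Pik3r1 encodes p85-alpha, the main regulatory subunit, which stabilizes p110 and holds it inactive until a receptor binds. The gene lies at chr13:101680563-101768217 (minus strand), and its counted window is wholly in the 3′ untranslated region (UTR). Its values were 11.2 and 9.37 CPM in shControl and 12.3 and 10.6 CPM in shLmna, from 31 to 39 counts per library. The groups overlapped, and the log2 fold change was 0.15 with a standard error (SE) of 0.28 (adjusted p = 0.762, edgeR). The annotated 3′ ends of Pik3r1 lie 198 bases apart in GENCODE and RefSeq. Pik3r1 was counted less often than Pik3r2 or Pik3r3 in every library, but the windows can differ in how efficiently they are primed. It made up 4.97% and 4.11% of the summed Pik3r1, Pik3r2 and Pik3r3 counts in shControl and 5.50% and 5.05% in shLmna.

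Most of this pool of regulatory counts came from Pik3r2 (p85-beta) and Pik3r3 (p55-gamma). Pik3r2 took 53.1% and 65.3% of it in shControl but 42.6% and 46.2% in shLmna, while Pik3r3 took 41.9% and 30.6% against 52.0% and 48.7%. The mean Pik3r2 share was thus 59.2% in shControl and 44.4% in shLmna, without overlap (exact permutation test, two-sided, p = 0.333, the smallest that 2 against 2 libraries allow). In the fit over all genes Pik3r2 fell by 0.48 on the log2 scale (134.1 ± 20.9 to 96.1 ± 1.66 CPM, mean ± SD, n = 2; edgeR adjusted p = 0.0495). It lost this call under 9 of 14 alternative settings, among them the removal of shControl 2 (-0.31, adjusted p = 0.199), shLmna 1 (-0.46, adjusted p = 0.249) or shLmna 2 (-0.49, adjusted p = 0.227). Pik3r3 did not pass (0.41, adjusted p = 0.124).

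Akt1 encodes a widely expressed AKT kinase, which passes the PIP3 signal on to survival and growth. It lies at chr12:112653821-112674884 (minus strand), and the counted window covers its whole 3′ UTR of 877 bases and the end of the coding sequence. Akt1 was measured at 1478 and 2053 CPM in shControl and at 1488 and 1406 CPM in shLmna, from 3761 to 7669 counts per library. One library, shControl 2, stood above the other 3, which lay close together, and the groups overlapped. The group means were 1766 ± 407 and 1447 ± 57.5 CPM (SD, n = 2), and the log2 fold change of -0.29 (SE 0.15) did not pass (adjusted p = 0.229, edgeR). Of the 7 tested genes Akt1 had the smallest p, and its result rested on which control library was used. Without shControl 1 the log2 fold change was -0.50 (adjusted p = 0.00241, edgeR), and without shControl 2 it was -0.03 (adjusted p = 0.908). The 5 tested genes with the nearest pattern over the 4 libraries were Paxbp1, Dnm2, Scrib, Coq9 and Olfm1, at Euclidean distances of 0.016 to 0.051 from Akt1 between deviations of log2 CPM from each gene's mean.

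Akt2, the isoform best known from insulin-stimulated glucose uptake, lies at chr7:27591552-27640826 (plus strand). It was measured at 15.2 and 13.7 CPM in shControl and at 14.6 and 16.1 CPM in shLmna, or 37 to 59 counts. The groups overlapped and the log2 fold change was 0.10 (SE 0.24, adjusted p = 0.827, edgeR). Akt1 was counted 97.4 and 150 times as often as Akt2 in shControl and 102 and 87.5 times as often in shLmna, and these ranges overlapped (exact permutation test, two-sided, p = 0.667).

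Tsc2 encodes tuberin, the GTPase-activating subunit of the TSC complex and the brake on RHEB that AKT releases. It lies at chr17:24595816-24632630 (minus strand). Its values were 86.4 and 101.5 CPM in shControl and 81.9 and 82.6 CPM in shLmna. Both shLmna libraries lay below both shControl libraries, but the lower control was nearer to them than to the other control. The log2 fold change was -0.19 (SE 0.14, adjusted p = 0.388, edgeR), and it ranged from -0.30 to -0.07 with 1 library left out. The end of Tsc2 overlaps Pkd1 on the opposite strand, and use of the strand in counting is not stated, so reads of both genes in the overlap may be mixed. Pkd1 itself did not pass, with 44.3 and 47.7 CPM in shControl and 66.1 and 47.7 CPM in shLmna (0.29, adjusted p = 0.331, edgeR). Tsc1, which encodes the stabilizing partner hamartin, had 69, 83, 49 and 54 counts and did not pass (-0.37, adjusted p = 0.331). Tsc2 made up 80.2% and 82.0% of the Tsc1 and Tsc2 counts in shControl and 80.9% and 84.9% in shLmna, and these ranges overlapped.

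Mtor encodes the kinase common to mTORC1 and mTORC2. It lies at chr4:148448611-148557683 (plus strand), and its counted window spans 3 exons and the whole 3′ UTR of 823 bases. Mtor was measured at 40.9 and 36.1 CPM in shControl and at 44.3 and 43.3 CPM in shLmna. Both shLmna libraries were above both controls, and they lay nearer to shControl 1 than that library lay to shControl 2. The log2 fold change was 0.19 (SE 0.17, adjusted p = 0.501, edgeR). The annotated gene Gm23318 lies within the region of this window on the same strand.

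Rptor encodes Raptor, which presents substrates to mTORC1, and Rictor encodes the scaffold of mTORC2. Rptor lies at chr11:119602905-119899576 and Rictor at chr15:6708379-6800401, both on the plus strand. The annotated 3′ ends of Rptor lie 184 bases apart in GENCODE and RefSeq. Rptor was measured at 80.8 and 76.0 CPM in shControl and at 73.6 and 71.4 CPM in shLmna, and Rictor at 33.1 and 32.9 CPM against 28.5 and 32.4 CPM. For both genes the shLmna libraries lay below the controls, and for Rictor shLmna 2 was close to them. Neither passed, with log2 fold changes of -0.11 (SE 0.14, adjusted p = 0.618, edgeR) for Rptor and -0.11 (SE 0.19, adjusted p = 0.741) for Rictor. The count ratio of Mtor to Rptor was 0.506 and 0.475 in shControl and 0.602 and 0.607 in shLmna. These ranges did not overlap (exact permutation test, two-sided, p = 0.333, the smallest possible here). The balance of the 2 scaffolds, Rptor and Rictor, did not separate the groups. Rptor made up 70.9% and 69.8% of their summed counts in shControl and 72.1% and 68.8% in shLmna, and the shLmna values lay on either side of the controls (exact permutation test, two-sided, p = 1).

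**Figure D2:**
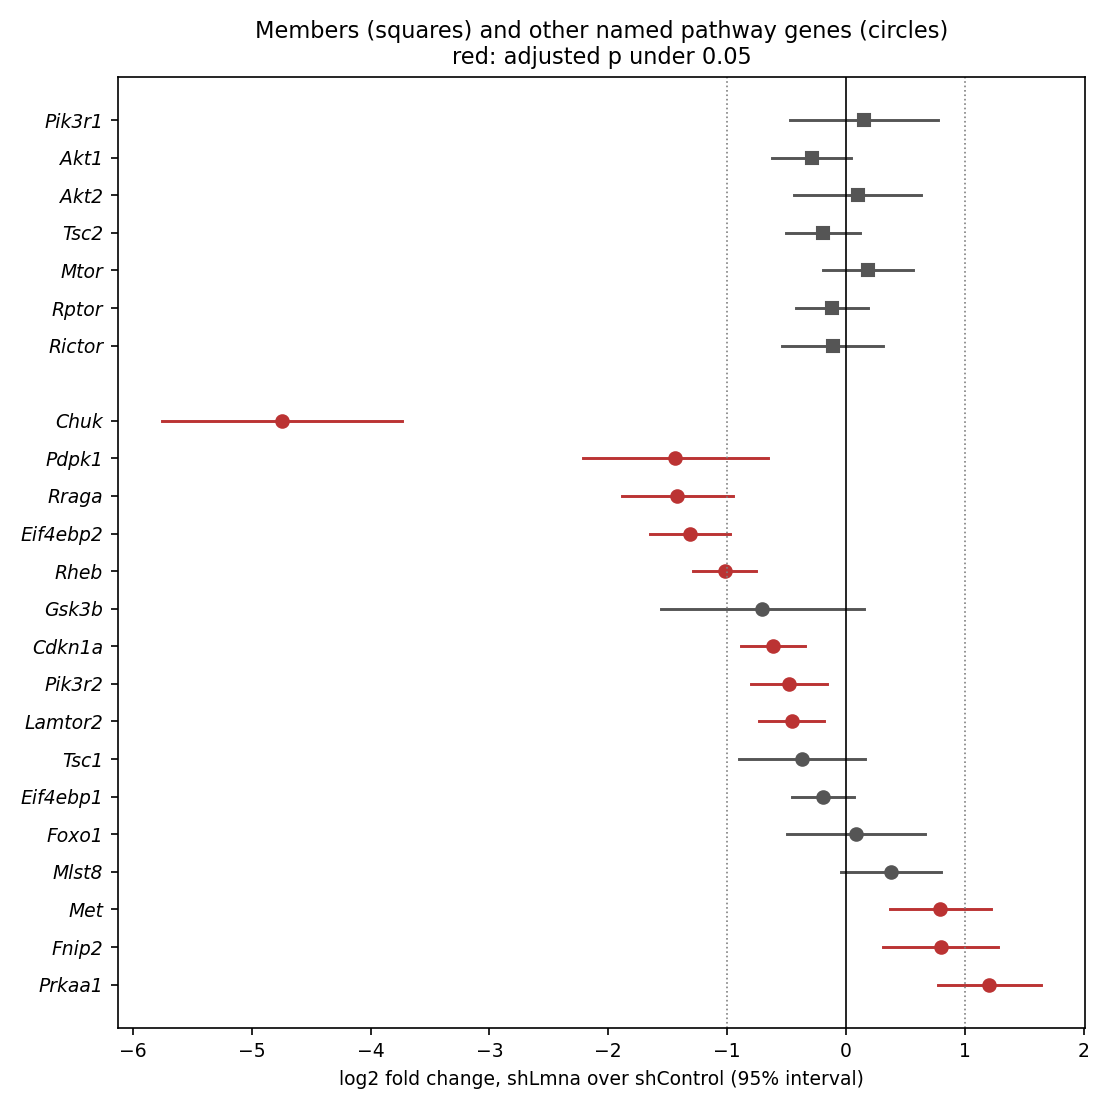
Log2 fold change of shLmna over shControl with 95% intervals (edgeR) for the 7 tested members (squares) and the other tested pathway genes picked by the naming rule (circles, Rragd not drawn). Red marks an adjusted p under 0.05, dotted lines mark -1 and 1, and the squares all lie between -0.29 and 0.19 while Chuk lies at -4.75 and Prkaa1 at 1.21.

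The 8 genes were then set beside 10 lists of the wider pathway, which hold 122 genes, the 8 included. Of these, 94 were tested, 12 passed (12.8%, against 15.2% of all tested genes), with 9 down and 3 up in shLmna, and 7 met all 3 limits (6 lower and 1 higher). In the mTOR complexes 0 of 10 tested genes passed, with a median log2 fold change of -0.01. They include Mlst8, the subunit of both complexes, at 0.38 (adjusted p = 0.214, edgeR), and 1 of the 10 had an unadjusted p under 0.05. None of the 5 tested phosphatases passed, with 1 at an unadjusted p under 0.05. Over all 9150 tested genes, 2750 had an unadjusted p under 0.05 (edgeR).

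The 12 passing genes are described by their place in the pathway. Pdpk1 encodes PDK1, the kinase that activates AKT. Its counts were 57 and 71 in shControl against 10 and 33 in shLmna (18.3 ± 0.957 to 6.47 ± 3.56 CPM), and its level fell by 1.44 on the log2 scale (SE 0.35, edgeR adjusted p = 0.0201). It did not pass without shLmna 1 (-1.02, adjusted p = 0.109) or with DESeq2 (adjusted p = 0.106), and without shLmna 2 the value was -2.19. Rheb, the GTPase that Tsc2 restrains and that switches on mTORC1, was at 226.6 ± 11.5 CPM in shControl and 111.6 ± 1.26 CPM in shLmna (SD, n = 2). It fell by 1.02 on the log2 scale with an SE of 0.12 (edgeR adjusted p = 0.000447) and kept its call in all 14 alternative settings. Of the 31-base words in its window, 4.33% occur in other genes. The count ratio of Tsc2 to Rheb was 0.368 and 0.464 in shControl and 0.739 and 0.734 in shLmna. The groups did not overlap (exact permutation test, two-sided, p = 0.333, the smallest possible here). The ratio largely restates the fall of Rheb and is not a separate result.

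The amino acid branch that places mTORC1 on the lysosome held 19 tested genes, 3 of them lower and 1 higher (21.1% passing, beside 15.2% of all tested genes). Rraga, which encodes the GTPase RagA, went from 163 counts in each control to 39 and 71 counts (log2 fold change -1.42, SE 0.21, edgeR adjusted p = 0.00167), a call kept in all 14 settings. Rragd, which encodes RagD, was counted 23 and 25 times in shControl against 1 and 0 times in shLmna. Per unit of depth its summed control counts were 42.7 times those of shLmna, with an exact 95% interval of 7.31 to 1722 that covers counting error only (edgeR adjusted p = 0.00209, but 0.0535 without shLmna 2). Lamtor2, a Ragulator subunit, fell by 0.46 on the log2 scale (342.4 ± 17.8 to 249.5 ± 14.6 CPM, adjusted p = 0.0336, edgeR). Fnip2, which encodes a partner of folliculin, rose by 0.80 (16.8 ± 1.92 to 29.3 ± 0.111 CPM, adjusted p = 0.0341, edgeR). Both of these lost their calls without shLmna 1 and without shLmna 2, with Lamtor2 at -0.51 and -0.38 and Fnip2 at 0.81 both times. Lamtor2 also did so without shControl 2 (adjusted p = 0.0566) and under a correction for GC content (-0.38, adjusted p = 0.0556), and Fnip2 without shControl 1 (adjusted p = 0.0573) and with DESeq2 (adjusted p = 0.252).

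Below AKT and mTORC1, 2 of 12 AKT substrates (16.7%) and 1 of 14 mTOR effectors (7.14%) passed, all lower in shLmna. Chuk, which encodes the kinase IKK-alpha of the NF-kappaB pathway, was counted 95 and 124 times in shControl against 3 and 4 times in shLmna (31.3 ± 2.67 to 1.14 ± 0.0684 CPM). Its log2 fold change was -4.75 (SE 0.45, edgeR adjusted p = 2.23e-05). Eif4ebp2, which encodes a repressor of cap-dependent translation that mTORC1 inactivates, fell by 1.31 (SE 0.15, edgeR adjusted p = 0.000384), from 128.7 ± 18.2 to 51.9 ± 1.77 CPM. Both calls held in all 14 settings. Cdkn1a, the gene of the cell cycle inhibitor p21, fell by 0.61 (301.2 ± 0.724 to 196.9 ± 11.7 CPM, edgeR adjusted p = 0.00853). Without shLmna 1 it was at -0.55 (adjusted p = 0.102) and without shLmna 2 at -0.66 (adjusted p = 0.0734).

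Other effectors did not pass. Eif4ebp1, the better known paralog of Eif4ebp2, was at -0.19 (adjusted p = 0.312, edgeR), and 26.2% of the 31-base words in its window occur in other genes. The transcription factor gene Foxo1 was at 0.08 (adjusted p = 0.866). Gsk3b, the gene of a kinase that AKT inhibits, had 23, 53, 16 and 25 counts and was at -0.70 (adjusted p = 0.248), but at -1.10 without shControl 1 (adjusted p = 0.0287). Foxo3 with 0, 1, 0 and 0 counts and Rps6kb1, which encodes the S6 kinase, with 3, 9, 1 and 2 counts were too low to test.

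Upstream, 1 of 8 tested receptors and adaptors (12.5%) passed, namely the HGF receptor gene Met. It was measured at 282.2 and 447.9 CPM in shControl and at 652.2 and 616.0 CPM in shLmna, a rise of 0.80 on the log2 scale (edgeR adjusted p = 0.0207). The rise was 0.50 without shControl 1 and 1.16 without shControl 2, and the call was lost without shLmna 1 (0.76, adjusted p = 0.124) or shLmna 2 (0.85, adjusted p = 0.122). Among 9 tested genes of the AMPK and stress input, Prkaa1 passed. It encodes the AMPK catalytic subunit alpha 1, which restrains mTORC1 when energy is low. Prkaa1 rose by 1.21 (SE 0.19, edgeR adjusted p = 0.00292), from 23.6 ± 4.48 to 54.9 ± 4.03 CPM. This call was kept in all 14 settings. In the batch-corrected log2 values the changes that held throughout were smaller, at -0.51 for Rheb, -0.41 for Rraga, -0.72 for Chuk, -0.55 for Eif4ebp2 and 0.37 for Prkaa1 (limma). Lmna was smaller there as well, at -1.54 in place of -2.61 in the main fit. The reason for the smaller values was not tested.

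**Figure D3:**
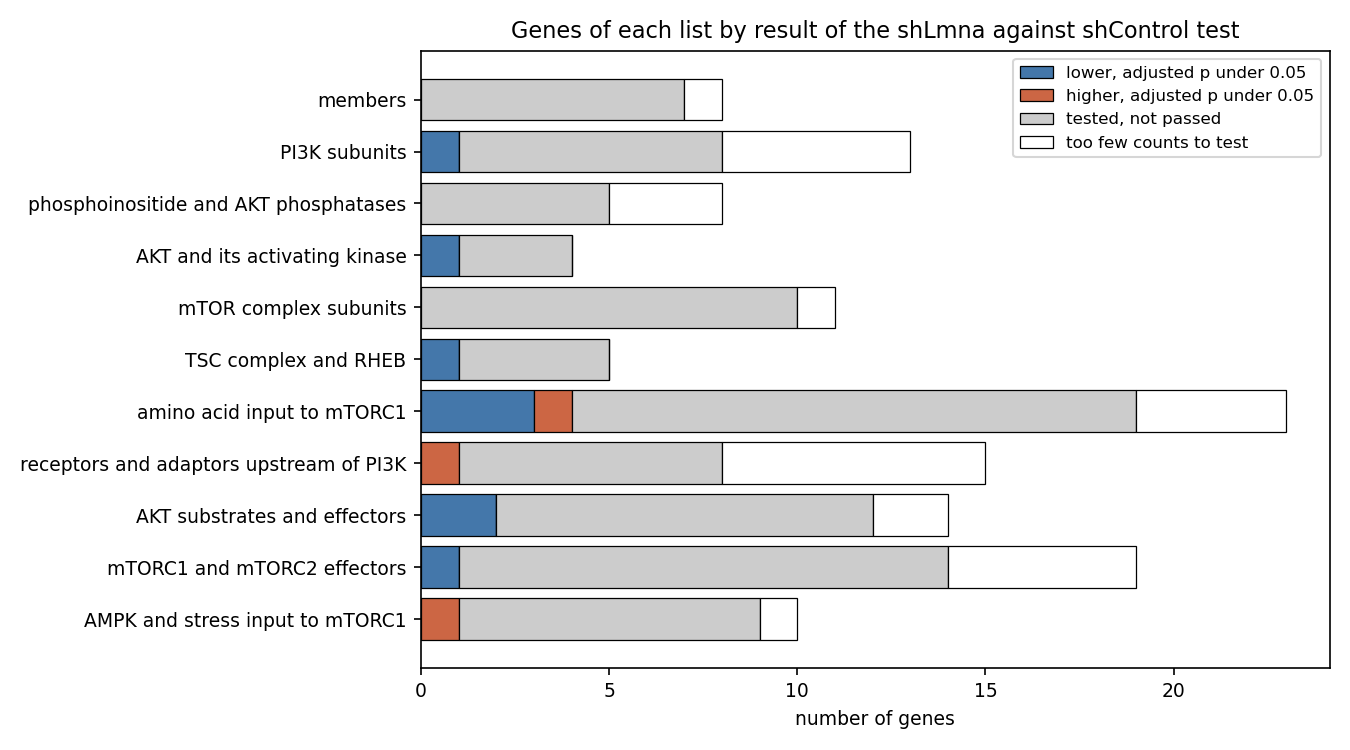
Number of genes (x axis) in the members and in each of the 10 pathway lists that were lower, higher or not past an adjusted p of 0.05 in shLmna, or had too few counts to be tested. The members (7 tested), the mTOR complexes (10) and the phosphatases (5) hold no passing gene, and the amino acid list holds 4 of the 12.

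Base composition of the counted window moved with the fold changes in these libraries. Over all tested genes the median log2 fold change was -0.84 in windows of 30% to 35% GC, where 44.7% of genes were lower in shLmna, and -0.01 in windows of 50% to 55% GC, where 5.42% were lower. The 7 tested members had a median GC content of 51.2%, against 46.9% over all tested genes, 39.8% for those lower and 42.8% for those higher in shLmna. Rictor at 35.3% and Pik3r1 at 38.7% GC were the members with AT-rich windows, and Akt1 was highest at 55.7%. Windows of 35% to 40% GC, as for Rictor and Pik3r1, had a median of -0.01 over all tested genes. In that bin 18.1% of genes were lower and 9.55% higher in shLmna. With counts corrected for a smooth curve on GC content in each library, Rictor changed sign to 0.61 on the log2 scale and did not pass (adjusted p = 0.0617, edgeR), and no other member changed direction. Among the passing genes, the windows of Chuk (33.3%), Prkaa1 (33.2%) and Pdpk1 (36.7%) were AT-rich, while that of Eif4ebp2 was at 54.9% GC. Under the correction Pdpk1 (adjusted p = 0.0646, edgeR), Pik3r2 (-0.32, adjusted p = 0.152) and Lamtor2 (adjusted p = 0.0556) lost their calls, so that 6 lower genes of the pathway lists passed in place of 9. Chuk was at -3.60, and Prkaa1 was at 2.42 (adjusted p = 3.94e-05). Over all tested genes the correction turned 891 lower and 501 higher genes into 749 lower and 780 higher. The part of base composition in these fold changes was not tested beyond this correction.

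**Figure D4:**
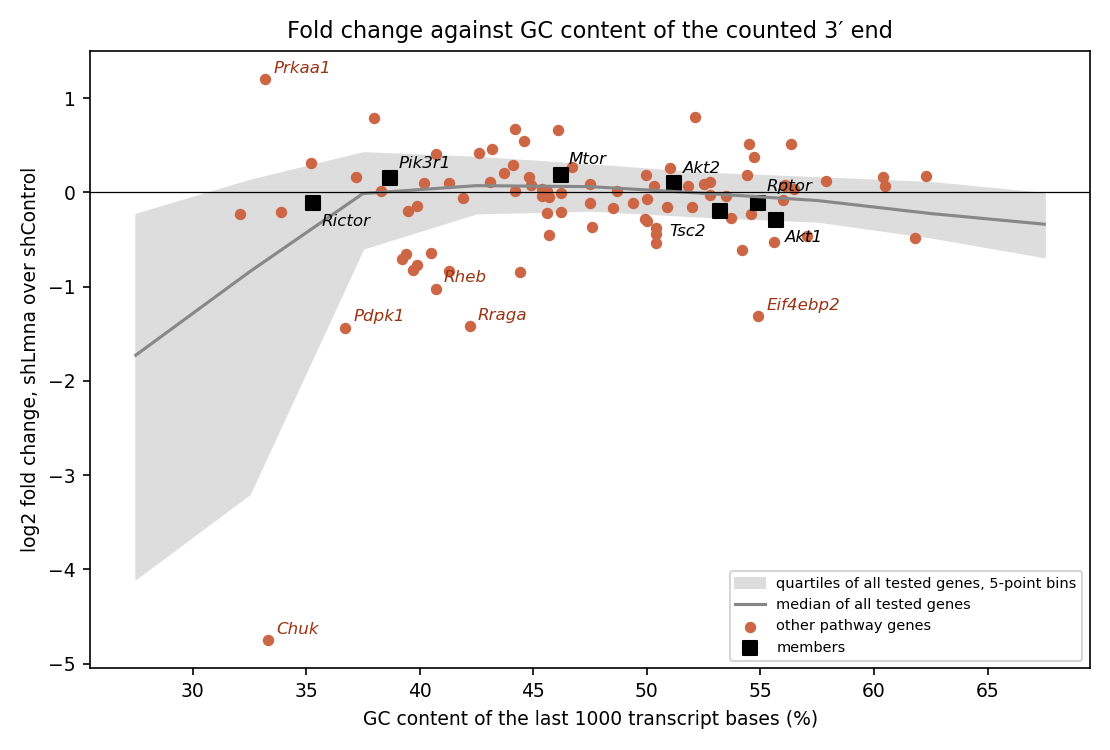
Log2 fold change of shLmna over shControl (y axis) against GC content of the last 1000 transcript bases in percent (x axis) for the 7 tested members (squares) and the other tested pathway genes (circles, Rragd not drawn), over the median and quartiles of all tested genes in bins of 5 percentage points. Most members lie where the median of all genes is near 0, and Rictor at 35.3% GC lies at the edge of the bins where that median falls to -0.84.

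**Figure D5:**
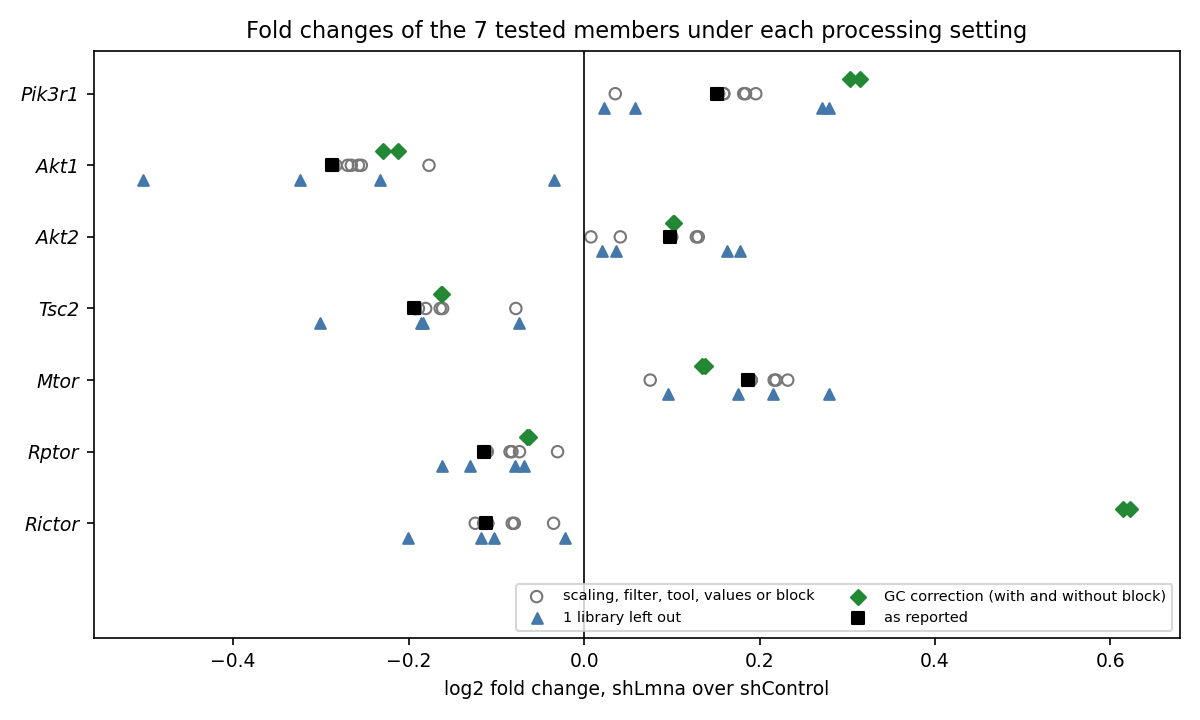
Log2 fold change of each of the 7 tested members (x axis) as reported and under the 14 alternative settings. Akt1 moves between -0.50 and -0.03 as control libraries are left out, and Rictor is the one member that crosses 0, at 0.61 and 0.62 under the GC correction.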

How the data were processed

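According to the study's methods, the authors processed reads with the UTAP pipeline. Adapters were trimmed with Cutadapt, reads were aligned to mm10 with STAR 2.4.2a, and HTSeq assigned them to a window of 1000 bases at the end of each RefSeq gene plus 100 bases beyond. Molecular identifiers were used to mark duplicates, but whether the deposited counts came before or after their removal is not stated. The deposited matrix of raw counts per gene was the input of the main test. The authors also deposited a size-factor normalized signal and log2 values corrected for batch with ComBat (batches not given in the sources used here), which served as alternatives. The p-values, adjusted p-values and calls deposited by the authors came from their own DESeq2 comparison of the groups and were not used.

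Sample titles gave the groups and replicate numbers. All 4 libraries entered 1 fit in edgeR 4.0.16 (R 4.3.3) with TMM scaling, filterByExpr (minimum count 10), group as the single term and a two-sided quasi-likelihood F test, adjusted by Benjamini-Hochberg over 9150 genes. The script was tested on simulated data. Passing means an adjusted p under 0.05. The SE came from the moderated quasi-dispersion, and the biological coefficient of variation was 0.126. Floors of 3 counts (0.803 to 1.19 CPM) and exact Clopper-Pearson intervals cover counting error only. GC content and coordinates came from GENCODE M21 (GRCm38), and 8808 of the 9150 tested genes had a GC value. Alternatives were other scalings, no filter, DESeq2 1.42.0, limma 3.58.1 on the other tables, a GC correction (lowess span 0.3), the replicate number as a block, and each library left out.

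The members and lists were chosen with earlier results of these data known. Named were the members, Lmna, list genes with an adjusted p under 0.05, Pdpk1, Tsc1, Rheb, Mlst8, Rps6kb1, Eif4ebp1, Foxo1, Foxo3 and Gsk3b, and the 5 genes nearest in pattern to the member with the smallest p. Pik3cb, Pik3cd, Pik3r3 and Pkd1 were added after their values were seen. Some genes that the rule names are not reported here.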

Additional observations from a re-analysis of the deposited data

How the results depend on the processing

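No member passed in the fit as reported, nor under 13 of 14 alternatives, and leaving out 1 library gave 0 to 1 members, with Akt1 as the 1 without shControl 1. Of 98 member values under alternatives, 95 kept direction and side of the threshold. Rictor turned to 0.61 (adjusted p = 0.0617, edgeR) with the GC correction and to 0.62 (adjusted p = 0.0517) with the GC correction and the replicate block. Among 238 values of the 17 other named genes 210 held, 25 lost the call, 2 gained it and 1 reversed, Foxo1, at -0.052 to 0.25 with 1 library left out and lowest without shControl 1 (adjusted p = 0.939, edgeR). Eif4ebp1 gained it with limma on batch-corrected log2 values (-0.12, adjusted p = 0.0221).

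Passing pathway genes numbered 12, against 19 without the filter, 33 with limma on batch-corrected log2 values and 6 to 21 with 1 library left out. Lower genes numbered 9, against 22 with limma on batch-corrected values and 5 to 15 with 1 library left out. Higher genes numbered 3, against 7 without the filter, 11 with limma on batch-corrected values, 7 with the replicate block, 5 with the GC correction, 6 with the correction and the block, and 1 to 6 with 1 library left out. Over all genes 1392 passed, against 807 with DESeq2, 3781 with limma on batch-corrected values and 503 to 2104 with 1 library left out. The lower share of these was 64%, against 52.6% in the batch-corrected values, 49% with the GC correction, 48.1% with the correction and the block, 78.6% without shLmna 1 and 82.3% without shLmna 2. The causes were not tested. The settings also tested different numbers of genes, so these counts are not on one scale. Among tested pathway genes, 12 of 94 passed as reported, 19 of 116 without the filter and 33 of 105 with limma on batch-corrected values. Over all genes, 1392 of 9150, 2042 of 13616 and 3781 of 10417 passed in the same order. In both alternatives the pathway count thus rose together with the count over all genes. With 1 library left out, 96 to 100 pathway genes were tested.

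Replicate numbers are shared only as numbers. Deviations of the same-numbered libraries correlated at 0.011 across genes, which are not independent replicates, and the replicate block gave 0 members, 18 pathway genes and 2072 genes in all. A fit with a library left out assumes that the lone library varies like the other group. The planned count test on whole counts recovered from the signal was not run, since 1 library's step was too close to 1 to tell from rounding. It was replaced by limma on log2 of the signal plus 1, chosen after seeing the data, which gave 0 members and 11 pathway genes. With 2 libraries a group, an exact permutation test cannot go below p = 0.333, and genes with few counts, such as Pik3r1 and Akt2, have intervals wide enough to hide moderate changes.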
